A study of Homo sapiens with 30 samples.

Results

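Lung metastases formed by subclone 13 of MDA-MB-231, a human breast cancer cell line, were compared with liver metastases that the subclone formed in the same mice. The comparison used every library labelled as subclone 13 from either organ, 10 of the 30 libraries of the series, and it was paired by mouse number. The 3 libraries that mouse 1 gave per organ were summed, which left 6 of 24 samples: 3 lung samples and 3 liver samples from mice 1, 2 and 3. No measured value was used to choose them. The cells carried LeGO vectors, lentiviral colour barcodes that mark single clones, and were sorted by subclone before bulk RNA sequencing. The hosts of all groups were NOD-SCID-IL2Rγc−/− (NSG) mice, which lack T, B and natural killer cells. The groups used here were lung metastases of subclone 13, liver metastases of subclone 13 and, as a reference level, primary tumours of subclone 13 in the same 3 mice. Lung and liver metastases of subclone 2 from these mice, and those of retransplanted subclone 2 from mice 4, 5 and 6, were set beside them. A subclone here is 1 clone of 1 cell line, and the labels do not say whether the organ of a retransplanted sample is the source of the transplanted cells or the site where they grew.

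MDA-MB-231 is a triple-negative line with mesenchymal features that spreads to lung and liver in immunodeficient mice. Tumour cells in each organ meet different oxygen, nutrients, cytokines and matrix. NF-kB, a family of transcription factors released by signals such as TNF and interleukin 1, drives chemokine genes in this line. Mitochondrial DNA encodes a small set of subunits of the respiratory chain, and nuclear genes encode the rest.

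The 6 samples had 13378350 to 82218315 reads counted to genes, with mouse 1 the deepest because its libraries were summed. Mouse and sequencing run were not separated between mice, although the libraries of mouse 1 came from runs 1, 2 and 3. Within a mouse the lung and liver libraries came from the same run numbers. All 10 tumour cell markers, among them VIM and CD44, were tested and none was called. Their summed level was 12210 to 17050 CPM (reads of a gene scaled to a common library total) in lung samples, against 11630 to 16330 CPM in liver samples. Hepatocyte markers summed to 94.2 to 101 CPM in lung samples, 156.5 to 235 CPM in liver samples and 134 to 230.2 CPM in tumours, most of it SERPINA1, while ALB reached 0.122 CPM in lung samples and 0.303 CPM in liver samples. The 10 lung epithelium markers summed to 3.87 to 13.8 CPM in lung samples, 3.14 to 11.8 CPM in liver samples and 5.34 to 14.8 CPM in tumours. Of the 4 tested, 3 were positive, 1 was negative and 0 were called in edgeR. Surfactant genes SFTPA1 and SFTPD and the club cell gene SCGB1A1 of that list had 0 counts in the 6 samples. CD3E of T cells, which the hosts lack, also had 0 counts. The genome build named for the counts is human, so RNA of mouse host cells counts only where it matches human sequence. The marker levels given here and below therefore cannot measure host cells. These samples are bulk RNA, in which fewer cells of a type and less RNA per cell cannot be told apart.

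Lung metastases of subclone 13 differed from liver metastases in 48 of 17418 tested genes (0.276%) in a paired fit (edgeR quasi-likelihood test with mouse as a term, Benjamini-Hochberg adjusted p under 0.05). Of these, 33 were higher in lung (0.189%) and 15 were lower (0.0861%). Of the higher genes, 10 were protein genes of mitochondrial DNA, and CYP1B1 and RGS1 had the largest fold changes. TCN1, COL1A2 and PTPRB fell most. The median log2 fold change over all tested genes was 0.015. Each of the 48 genes had the same direction in all 3 mice. The 3 lung samples lay wholly above the 3 liver samples for 29 of the 33 higher genes, as for 5.23% of all genes, and wholly below them for all 15 lower genes, as for 5.53% of all genes. In mouse 1 the 3 lung libraries did not overlap the 3 liver libraries for any of the 48 genes. These are repeat libraries of samples that entered the calls, so this is not separate support. The share over all genes was not counted. The calls depended on the pairing: without mouse as a term 0 genes passed in edgeR, with 792 at an unadjusted p under 0.05 and a smallest adjusted p of 0.119. In the 9 fits that each left out 1 subclone 13 lung or liver sample or 1 mouse, RRAD was the 1 gene called every time. Of the 48 genes, 11 were called in none: RGS1, PTPRB, TPPP, GALNT6, TLN1, SYNJ2, PTPRU, PLEKHG4, SNHG8, MT-CO1 and MT-TP.

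Transcripts of mitochondrial DNA were higher in lung metastases. The 13 protein genes of that genome took 8.56%, 9.61% and 9.71% of all counts in lung samples of mice 1, 2 and 3, against 3.79%, 4.36% and 3.68% in liver samples and 2.86%, 3.25% and 3.45% in tumours. The groups averaged 9.30% ± 0.636 in lung, 3.94% ± 0.367 in liver and 3.18% ± 0.298 in tumours (SD, n = 3 each). Lung thus stood apart and liver lay close to the tumours. The single libraries of mouse 1 ranged from 8.43% to 8.89% in lung and from 3.75% to 4.13% in liver. The mitochondrial ribosomal RNAs took 1.87% ± 0.381 of counts in lung, 0.616% ± 0.278 in liver and 1.90% ± 0.541 in tumours, so for these the tumour level was near that of lung.

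Of the 13 protein genes, 10 rose, and the median over all 13 was 1.39 on the log2 scale. Without the lung sample of mouse 3 the number called was 3, without mouse 2 it was 3 and without mouse 3 it was 0. MT-ND1 (chrM:3307-4262, GRCh38), a subunit of complex I as are all MT-ND proteins, had 4979.7, 3961 and 4525 CPM in lung, against 1599.6, 1359 and 1336 CPM in liver. Lung was higher by 1.65 ± 0.22 (log2, SE; adjusted p 0.00209 in edgeR). MT-ND2 had 5349, 4829 and 4968 CPM in lung and 1998, 1708 and 1423 CPM in liver (1.58 ± 0.21). MT-ND6, the protein gene read from the other strand (chrM:14149-14673), had 1304, 583 and 882 CPM in lung and 399.7, 182 and 189 CPM in liver (1.90 ± 0.33). It adjoins MT-ND5, which had 1.88, and reads of the 2 strands cannot be told apart in these libraries. No lung sample of these genes was as low as any liver sample, which held for 11 of the 13 genes and for 5.23% of all genes. MT-ND5, MT-ND4, MT-ND4L, MT-CYB of complex III, MT-CO1 and MT-CO2 of complex IV and MT-ATP6 of ATP synthase also rose, by 1.15 to 1.88. MT-ND3 (1.11 ± 0.24, adjusted p 0.0555 in edgeR), MT-CO3 (1.05 ± 0.23, 0.0612) and MT-ATP8 (1.10 ± 0.31, 0.150) did not pass. The transfer RNA gene MT-TP rose by 1.13 ± 0.20. The called nuclear copies MTND2P28 and MTATP6P1 share sequence with mitochondrial genes, so their counts are uncertain. The 22 nuclear subunits of oxidative phosphorylation had a median of 0.08, and 0 of them passed in edgeR.

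**Figure D1:**
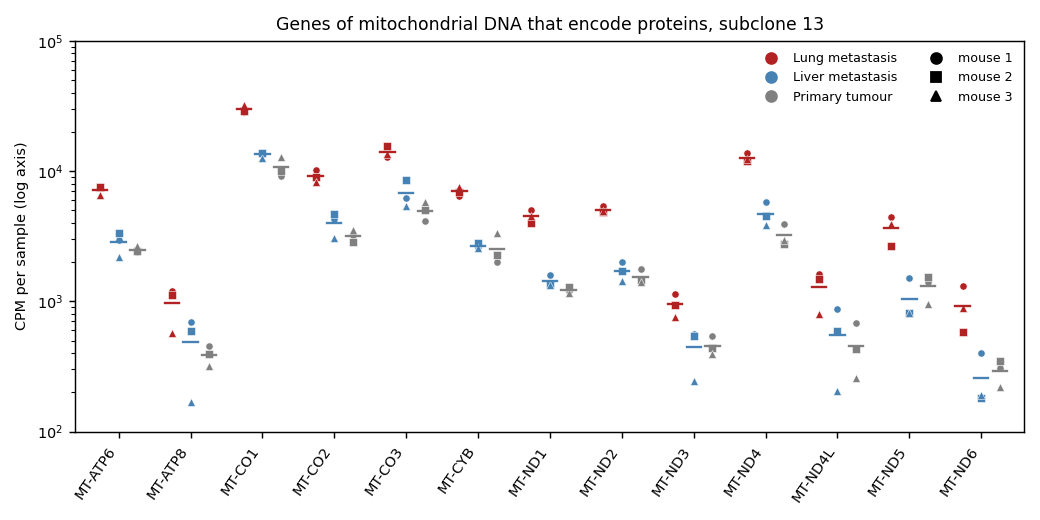
CPM (log axis) of the 13 protein genes of mitochondrial DNA in subclone 13. Points are samples, shaped by mouse, and bars are means of 3 mice. Lung samples lie above liver samples for 11 of the 13 genes, as for 5.23% of all genes. MT-ND1 averaged 4489 CPM in lung against 1432 CPM in liver.

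Called genes with a role in TNF, NF-kB or inflammatory signalling are given next. Of the gene lists on this subject, each held at most 1 of them. All lists were written with earlier results of these data known. TNFRSF1B, the TNF receptor TNFR2 (chr1:12167003-12209228), had 14.9, 8.94 and 10.7 CPM in lung, against 1.203, 1.63 and 2.30 CPM in liver. It rose by 2.96 ± 0.61 (log2, SE; adjusted p 0.0433 in edgeR), and its tumour values of 3.91, 4.76 and 6.80 CPM fell between the organs. Without the lung sample of mouse 1 its value was 2.04 and it did not pass (adjusted p 0.309), and it lost its call in 13 of 19 alternatives. MAP3K8, the kinase TPL2 that links TNF and Toll-like receptors to ERK (chr10:30433937-30461833), had 24.3, 28.8 and 44.6 CPM in lung and 1.97, 9.07 and 17.5 CPM in liver (2.14 ± 0.37, adjusted p 0.0170; 1.50 and 0.160 without mouse 1). RELB, a subunit of the non-canonical NF-kB dimer (chr19:45001430-45038198), had 40.8, 34.5 and 60.04 CPM in lung and 18.4, 16.6 and 31.0 CPM in liver (1.05 ± 0.21, adjusted p 0.0381). Lung samples lay wholly above liver samples for all 3, as for 5.23% of all genes. CD83, a surface protein of activated immune cells (chr6:14117256-14136918), had 74.6, 25.7 and 48.6 CPM in lung and 10.9, 12.6 and 17.0 CPM in liver (1.88 ± 0.35). PTGER4, the prostaglandin E2 receptor EP4, had 31.2, 42.2 and 47.5 CPM in lung and 17.5, 24.9 and 14.97 CPM in liver (1.10 ± 0.20). Tumour levels of MAP3K8, RELB and CD83 were all above the liver samples and overlapped lung.

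RELB was the 1 called member of 25 tested genes in a list of the TNF and NF-kB response, and TNFRSF1B the 1 of 23 in a list of TNF receptors and ligands. In the response list 24 of 25 values were positive with a median of 1.24. The lung samples lay wholly above the liver samples for 14 of the 25, as for 5.23% of all genes. Members of a list share the same samples and can move together, so such counts are not independent. Among 20 cytokines and chemokines 0 passed in edgeR, while 19 were positive with a median of 1.54. The chemokines varied widely between mice within liver. CXCL1, a ligand of CXCR2 that attracts neutrophils, had 168, 64.1 and 75.9 CPM in lung and 3.71, 10.9 and 28.7 CPM in liver (2.98 ± 0.78, adjusted p 0.113). CXCL3 had 114, 45.7 and 69.0 CPM in lung and 3.78, 9.92 and 29.2 CPM in liver (2.77 ± 0.61, adjusted p 0.0609); CXCL1 and CXCL3 are close paralogs, so their counts are uncertain. CXCL8 had 368, 184 and 349 CPM in lung and 39.9, 88.9 and 111 CPM in liver (1.95 ± 0.50, adjusted p 0.108). For these 3 chemokines every lung sample was above every liver sample, and liver of mouse 1 was the lowest sample. Among the 20 cytokines and chemokines, 9 had every lung sample above every liver sample, as did 5.23% of all genes. IER3, a survival gene, had 1661, 957 and 1839.9 CPM in lung and 392, 501 and 869 CPM in liver (1.35 ± 0.30, adjusted p 0.0609). BIRC3, an inhibitor of apoptosis, had 254, 196 and 210.1 CPM in lung and 22.7, 63.8 and 81.7 CPM in liver (2.12 ± 0.55, adjusted p 0.110).

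The promoters of 5 members of the response list are shown because their samples did not overlap between the organs and because a kB motif lies close to the start. The motif searched was GGG, any pair of bases and then TTTCC, on both strands; it has no overlapping matches here, and the matches are in capitals in the 120 bases before the start (RefSeq, GRCh38.p14, 5′ to 3′ on the strand of the gene).
CXCL1 (chr4:73869273-73869392, plus strand): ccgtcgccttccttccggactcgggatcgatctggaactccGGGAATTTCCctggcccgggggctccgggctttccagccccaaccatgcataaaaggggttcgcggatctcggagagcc
CXCL3 (chr4:74038690-74038809, minus strand): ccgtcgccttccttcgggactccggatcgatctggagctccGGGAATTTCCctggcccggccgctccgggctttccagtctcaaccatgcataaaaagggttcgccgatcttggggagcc
CCL20 (chr2:227813722-227813841, plus strand): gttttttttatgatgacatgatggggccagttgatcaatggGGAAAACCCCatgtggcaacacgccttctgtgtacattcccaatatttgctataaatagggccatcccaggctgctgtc
TNFAIP3 (chr6:137867139-137867258, plus strand): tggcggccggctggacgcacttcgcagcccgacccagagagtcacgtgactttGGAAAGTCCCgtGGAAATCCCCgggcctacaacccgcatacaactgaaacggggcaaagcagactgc
NFKBIA (chr14:35404750-35404869, minus strand): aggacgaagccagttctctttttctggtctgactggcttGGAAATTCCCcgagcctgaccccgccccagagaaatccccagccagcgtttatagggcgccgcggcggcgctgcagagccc
The match begins 79 bases before the start in CXCL1, CXCL3 and CCL20, 81 bases before it in NFKBIA, and 67 and 55 bases before it in TNFAIP3. Within 250 bases before the start, 11 of the 22 list members with an entry held the motif, against 1.73% of 27305 promoters in the table. The list was written as known NF-kB response genes, so a high share follows from its making. It is not a result about lung and liver. Of the 48 called genes 25 had an entry, and 0 of these held the motif. CCL20, a chemokine that attracts CCR6-bearing cells, had 4.09, 7.11 and 8.97 CPM in lung and 0.322, 1.15 and 1.97 CPM in liver (2.76 ± 0.77, adjusted p 0.142 in edgeR). TNFAIP3 and NFKBIA, which feed back on NF-kB, had values of 1.34 ± 0.47 (adjusted p 0.248) and 1.14 ± 0.50 (adjusted p 0.404).

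**Figure D2:**
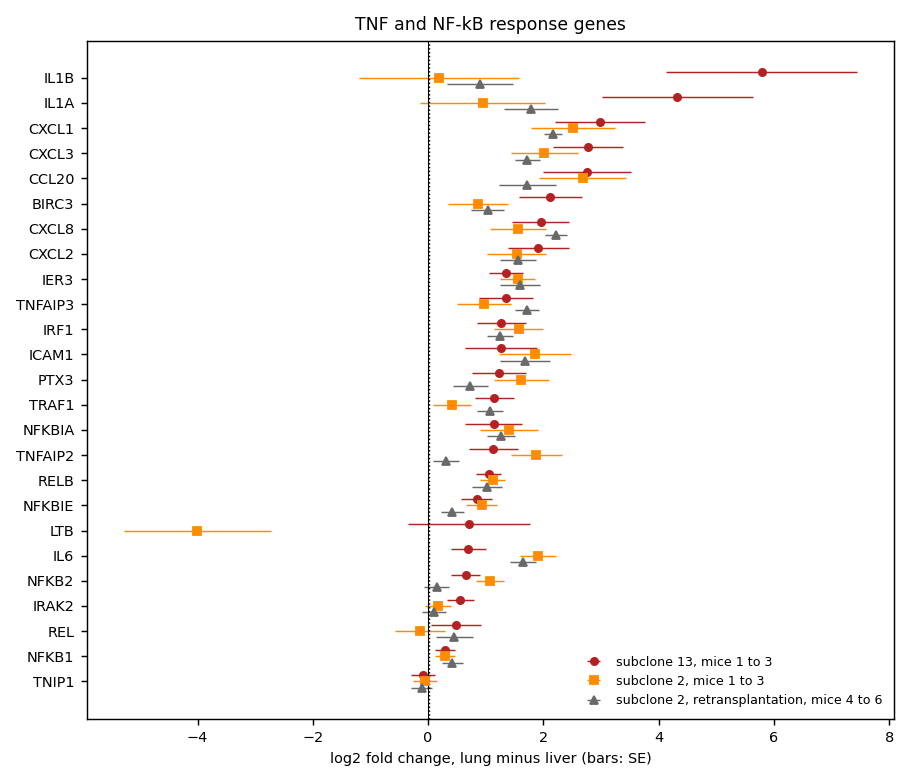
Log2 fold change, lung minus liver, with SE bars, of the 25 tested TNF and NF-kB response genes in subclone 13, subclone 2 and retransplanted subclone 2. The dotted line is the median of all genes in subclone 13, 0.015; TNIP1 is the 1 member below 0 in subclone 13, at -0.09.

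The largest change of all belonged to CYP1B1, a cytochrome P450 of oestrogen and polycyclic hydrocarbon metabolism and a target of the aryl hydrocarbon receptor (chr2:38066973-38109902). It had 25.0, 9.69 and 23.8 CPM in lung, against 0.203, 0.665 and 0.460 CPM in liver, and 54.0, 28.9 and 143 CPM in tumours. It rose by 5.71 ± 0.81 (log2, SE; adjusted p 0.00329 in edgeR), so the transcript was almost missing from liver metastases and present at the other sites. Its value was 4.95 without the lung sample of mouse 1, 6.45 without mouse 2, and 4.78 without mouse 1, where it did not pass (adjusted p 0.107). CYP1B1 shares 678 exonic bases with its antisense gene CYP1B1-AS1, and the library kit kept no strand. It was the 1 called gene among 9 tested aryl hydrocarbon receptor targets, whose median was 0.34; AHR itself had 0.62 ± 0.23 (adjusted p 0.304).

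RGS1, a regulator that turns off G protein signalling at chemokine receptors (chr1:192575727-192580031), had 33.8, 48.5 and 155 CPM in lung, against 2.02, 5.14 and 4.01 CPM in liver and 3.99, 3.64 and 4.78 CPM in tumours. It rose by 4.17 ± 0.84 (adjusted p 0.0398 in edgeR), and lung alone was high. RGS1 and CD83 are also expressed by leukocytes, and 0 of 5 tested leukocyte markers were called in edgeR. The 10 markers summed to 4.30 to 8.77 CPM in lung, 6.16 to 15.9 CPM in liver and 11.9 to 15.1 CPM in tumours. These human genes cannot measure mouse leukocytes, and a part of such cells was not tested. MUC5AC, a gel-forming airway mucin (chr11:1157953-1201138), was also high in lung alone, with 9.70, 32.7 and 29.6 CPM in lung, 1.81, 3.39 and 6.50 CPM in liver and 2.50, 3.79 and 4.38 CPM in tumours (2.54 ± 0.42, adjusted p 0.0119). It was the 1 called gene of 9 mucins and trefoil factors tested.

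Other called genes were high in both lung metastases and tumours. RRAD, a small GTPase of the RGK family (chr16:66921679-66925644), had 188, 89.5 and 404 CPM in lung, 27.7, 26.2 and 91.2 CPM in liver and 179.9, 117 and 206 CPM in tumours (2.20 ± 0.31, adjusted p 0.00329 in edgeR). Lung of mouse 2 was just below liver of mouse 3, so the groups overlapped although each mouse moved the same way. WWC1, the Hippo pathway scaffold KIBRA, had 5.48, 11.3 and 11.1 CPM in lung and 1.95, 2.42 and 3.22 CPM in liver (1.90 ± 0.39). It was the 1 called gene of 18 in a Hippo list. TPPP, which promotes tubulin polymerisation, had 32.5, 24.6 and 59.9 CPM in lung and 9.69, 9.50 and 12.3 CPM in liver (1.75 ± 0.34). HMGCS1, an early enzyme of cholesterol synthesis, had 75.3, 179 and 125 CPM in lung and 38.0, 60.003 and 41.5 CPM in liver (1.38 ± 0.23, adjusted p 0.00999). It was the 1 of 23 cholesterol genes to pass, and the median of that list was 0.18. TPPP shares 404 and HMGCS1 703 exonic bases with genes on the opposite strand.

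Among regulators of signalling, TRIB1, a pseudokinase that directs the ubiquitin ligase COP1, had 119.7, 165 and 186 CPM in lung and 55.4, 63.1 and 38.4 CPM in liver (1.60 ± 0.27, adjusted p 0.0142 in edgeR). IER2 had 200.3, 158 and 360.0 CPM in lung and 122, 60.6 and 91.4 CPM in liver (1.37 ± 0.27, adjusted p 0.0343). It was the 1 called gene of 21 immediate early genes, of which 19 were positive with a median of 0.73. KLF4 (1.06 ± 0.23, adjusted p 0.0555) and EGR2 (1.94 ± 0.43, adjusted p 0.0638) came next. MIR23AHG, host transcript of a microRNA cluster, rose by 1.54 ± 0.27 with overlapping groups, and 2286 of its exonic bases also belong to ZSWIM4 on the other strand. The remaining higher calls were ANKRD33B, TRIM47, PLEKHG4, the noncoding SNHG8 and an unnamed transcript on chromosome 17, at 0.93 to 3.17 on the log2 scale. TRIM47 shares 1618 and PLEKHG4 72 exonic bases with genes on the opposite strand.

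The lower genes included 3 of the extracellular matrix. COL1A2, a chain of type I collagen (chr7:94394561-94431232), had 26.1, 19.3 and 27.0 CPM in lung, against 99.0, 64.1 and 105 CPM in liver and 176, 141 and 159 CPM in tumours. It fell by 1.89 on the log2 scale (SE 0.38, adjusted p 0.0377 in edgeR). TNC, the matrix glycoprotein tenascin C known for lung colonisation by this line (chr9:115019578-115118257), had 156, 142 and 135 CPM in lung, 345, 249 and 302 CPM in liver and 606, 482 and 571 CPM in tumours (-1.03 ± 0.17, adjusted p 0.0123). LTBP2, a fibrillin-like protein of the microfibrils (chr14:74498170-74612378), had 59.6, 64.8 and 80.9 CPM in lung, 207, 106 and 157 CPM in liver and 229.5, 211 and 279 CPM in tumours (-1.20 ± 0.24, adjusted p 0.0381). For all 3 the order was lung, liver, tumour from low to high without overlap. Over all genes, lung samples lay wholly below liver samples for 5.53%. COL1A2 was the 1 called gene of 27 collagen and basement membrane genes, of which 19 were negative and 8 positive (median -0.32). TNC and LTBP2 were the 2 called of 22 matrix glycoproteins, of which 13 were negative and 9 positive (median -0.39). COL1A1, the other chain of type I collagen, had 32.8, 28.9 and 49.9 CPM in lung and 23.3, 16.4 and 65.2 CPM in liver (0.24 ± 0.47, adjusted p 0.910 in edgeR), so the organs overlapped. TNC shares 129 and LTBP2 207 exonic bases with genes on the opposite strand. COL8A1 (-0.96 ± 0.23, adjusted p 0.0791), COL4A5 (-1.63 ± 0.37, 0.0640), COL6A3 (-0.90 ± 0.26, 0.153) and FBN1 (-1.13 ± 0.31, 0.140) did not pass. Fibroblast and stellate cell markers summed to 41.0 to 73.0 CPM in lung, 37.1 to 98.8 CPM in liver and 71.7 to 163 CPM in tumours, with 0 of 7 tested markers called, and a part of such cells in the matrix genes was not tested. TNC was also the 1 called gene of 19 lung metastasis genes described for MDA-MB-231, and it was lower in lung.

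Also lower were PECAM1 and PTPRB, a pair of surface proteins best known from endothelium. PECAM1, the adhesion molecule CD31 (chr17:64319415-64413776), had 11.4, 8.31 and 9.56 CPM in lung, 42.4, 24.3 and 13.3 CPM in liver and 19.8, 13.5 and 14.0 CPM in tumours (-1.41 ± 0.29, adjusted p 0.0433 in edgeR). The liver values spread widely, and liver of mouse 3 was close to lung. PTPRB, the phosphatase VE-PTP, had 2.11, 1.95 and 1.56 CPM in lung and 7.34, 5.08 and 5.25 CPM in liver (-1.64 ± 0.33, adjusted p 0.0368). It shares 1040 and 264 exonic bases with 2 genes on the opposite strand. Summed over 9 endothelial markers, lung samples had 82.2 to 109 CPM, liver samples 111 to 179 CPM and tumours 98.4 to 108 CPM of total counts, most of it ROBO4. Among the others, VWF reached 0.748 CPM in lung and 0.121 CPM in liver, and EMCN 0.0243 CPM in lung and 0.182 CPM in liver. KDR reached 3.90 CPM in lung and 3.40 CPM in liver, and TEK 0.766 CPM in lung and 1.35 CPM in liver. PECAM1 was the 1 called of the 5 endothelial markers tested, of which 3 were negative and 2 positive. CDH5 had 0.50 ± 1.20 (adjusted p 0.926 in edgeR). A part of host or other cells in its difference was not tested.

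Of the other lower genes, TCN1, a vitamin B12 carrier (chr11:59852800-59866575), fell most, with 4.05, 4.15 and 1.33 CPM in lung, 14.6, 17.5 and 12.4 CPM in liver and 8.33, 8.35 and 10.03 CPM in tumours (-2.18 ± 0.40, adjusted p 0.0222 in edgeR). NOX5, a calcium-activated NADPH oxidase, was high in liver alone, with 31.6, 31.8 and 40.0 CPM in lung, 84.4, 115 and 72.8 CPM in liver and 41.1, 37.9 and 38.1 CPM in tumours (-1.40 ± 0.29, adjusted p 0.0445). GALNT6, which starts mucin-type O-glycans, had 72.7, 61.7 and 66.1 CPM in lung and 142, 131 and 128 CPM in liver (adjusted p 0.0381). HUWE1, a large ubiquitin ligase, had 209.8, 196 and 220.4 CPM in lung and 512, 338 and 363 CPM in liver (-0.93 ± 0.17). TLN1, which couples integrins to actin, had 497, 358 and 302 CPM in lung and 1054, 552 and 565 CPM in liver (-0.88 ± 0.18). The catalytic subunit of DNA polymerase alpha POLA1, the lysosomal mannosidase MAN2B2, the receptor phosphatase PTPRU, the sodium/proton exchanger SLC9A7 and the phosphoinositide phosphatase SYNJ2 fell by 0.81 to 0.99. Lung samples lay wholly below liver samples for all of these 10 genes, as for 5.53% of all genes. The 10 were chosen as called genes, so this is not separate support. GALNT6 shares 392 and TLN1 61 exonic bases with genes on the opposite strand.

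**Figure D3:**
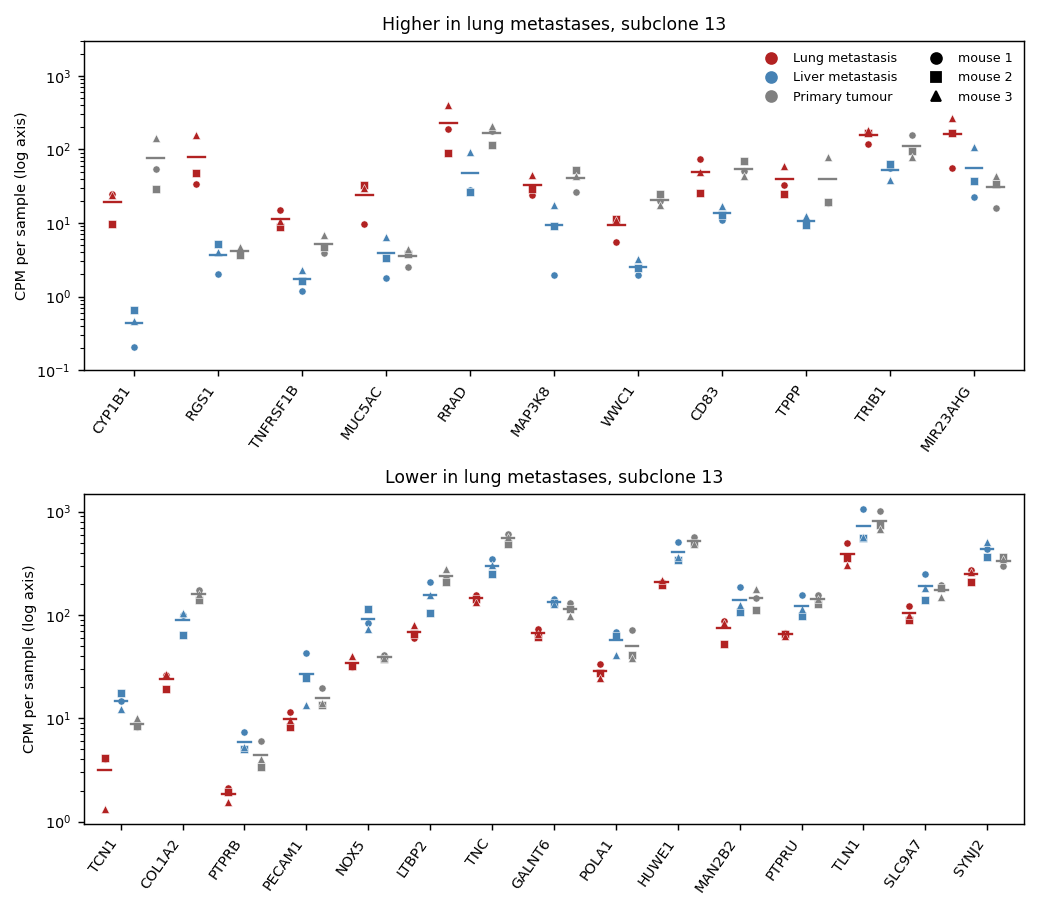
CPM per sample (log axis) of called nuclear genes with a symbol and at least 5 CPM in the higher organ. The largest fold changes in subclone 13 are shown in order, 11 higher in lung metastases (upper panel) and 15 lower (lower panel). Points are samples shaped by mouse and bars are means of 3 mice; CYP1B1 averaged 19.5 CPM in lung, 0.443 CPM in liver and 75.3 CPM in tumours.

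Metabolic and stress lists gave no calls beyond those above, but several had values mostly of 1 sign. Members of a list share the same samples, so these counts of sign are not independent. All 19 tested targets of NRF2, the oxidative stress factor, were below 0 with a median of -0.54, and 0 passed in edgeR (48 calls among all genes). HMOX1, heme oxygenase 1, had 17.7, 8.05 and 8.67 CPM in lung and 80.7, 29.2 and 29.9 CPM in liver (-2.001 ± 0.69, adjusted p 0.238). AKR1C2 had 1.62, 1.89 and 1.70 CPM in lung and 9.49, 5.87 and 3.74 CPM in liver (-1.88 ± 0.63, adjusted p 0.225). Both were lower in each lung sample than in any liver sample, which held for 3 of the 19 targets and for 5.53% of all genes. Of 24 genes of glycolysis and hypoxia, 23 were below 0 with a median of -0.43, and 0 passed. The glycolytic enzyme PGK1 had 630.5, 490.3 and 587 CPM in lung and 991, 1085 and 1144 CPM in liver (-0.95 ± 0.22, adjusted p 0.0675). The glucose transporter SLC2A3 had 364, 372 and 425 CPM in lung and 863, 811 and 897 CPM in liver (-1.16 ± 0.30, adjusted p 0.110). In these examples too the lung samples lay wholly below the liver samples, which held for 6 of the 24 genes of that list. Of 17 glycogen genes 14 were below 0 (median -0.36), led by the glycogen targeting subunit PPP1R3B (-0.81 ± 0.18, adjusted p 0.0609). Interferon response genes had a median of 0.33 with 0 of 30 called, and mitotic genes a median of -0.34 with 0 of 25 called.

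**Figure D4:**
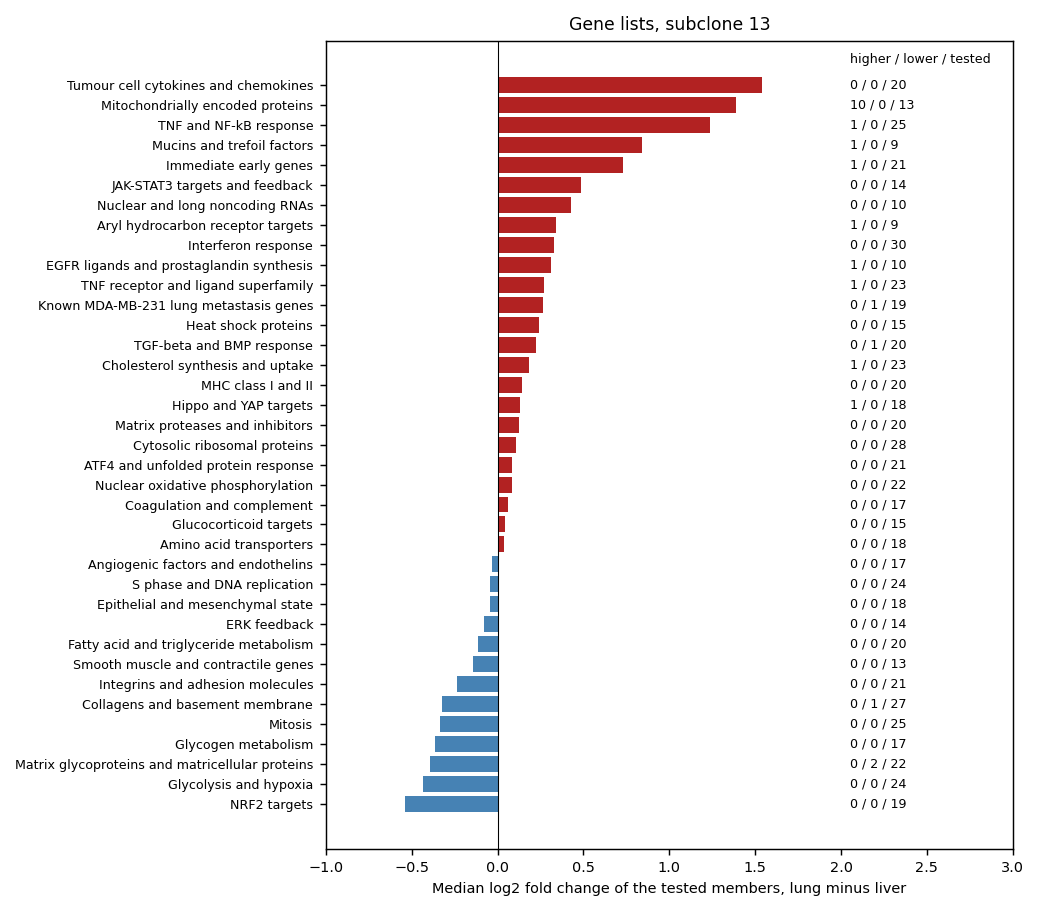
Median log2 fold change, lung minus liver, of the tested members of 37 gene lists in subclone 13. Numbers at the right give members called higher, called lower and tested; the median of all genes was 0.015, and the mitochondrial list is the one with 10 calls.

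The primary tumours gave another level for each called gene, described without a test because their samples would serve both organs. Distances are between means of log2(CPM + 0.5). For the 33 genes higher in lung, the tumour mean lay nearer to liver in 20, among them 10 protein genes of mitochondrial DNA, RGS1 and MUC5AC, and nearer to lung in 13, among them CYP1B1, RRAD, MAP3K8 and CD83. For the 15 genes lower in lung it lay nearer to liver in 14, with NOX5 the exception. On means of CPM itself TCN1, SYNJ2 and PECAM1 were nearer to lung and TNFRSF1B nearer to liver. All 3 tumours were above all 3 lung samples for 14 of the 15 genes lower in lung. Genes chosen for low lung values tend to have any other group above lung. The shares of all genes that meet these tumour counts were not counted, so the counts are a description only.

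Subclone 2 was set beside these values to see where the subclones differ. Its lung and liver samples are other libraries of the same 3 mice. In the same fit 284 genes were higher in its lung metastases (1.63%) and 230 were lower (1.32%). All 33 genes higher in lung in subclone 13 were positive in subclone 2, and 27 of them were called there. All 15 lower genes were negative, and 7 were called there. The protein genes of mitochondrial DNA had a median of 1.17 in subclone 2, and 12 of 13 were called. CYP1B1 (4.24 ± 0.68), MUC5AC (3.19 ± 0.42), TNFRSF1B (3.33 ± 0.62) and COL1A2 (-2.58 ± 0.40) were called in subclone 2 as well. The test of the difference between the subclones called 0 of 17418 genes in edgeR, with 783 at an unadjusted p under 0.05 and a smallest adjusted p of 0.451. TCN1 had the smallest unadjusted p of the called genes in that test, 0.000982 (adjusted p 0.723), with -2.18 ± 0.40 in subclone 13 and -0.05 ± 0.38 in subclone 2. CD83 had 1.88 ± 0.35 in subclone 13 and 0.37 ± 0.34 in subclone 2 (unadjusted p 0.00567 for the difference, adjusted p 0.858 in edgeR), and NOX5 had -1.40 ± 0.29 and -0.27 ± 0.28 (0.0114, adjusted p 0.968).

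In the retransplantation samples of subclone 2, from mice 4, 5 and 6, 69 of 17549 genes were higher in the samples labelled lung (0.393%) and 15 were lower (0.0855%). Of the 33 genes higher in lung in subclone 13, 32 were positive there and 1, PTGER4 (1.41 ± 0.20, adjusted p 0.0437 in edgeR), was called. Of the 15 lower genes 5 were negative and 0 were called. The protein genes of mitochondrial DNA had a median of 0.55 with 0 of 13 called. For the TNF and NF-kB response the median was 1.16 with 5 of 24 called, among them CXCL1 (2.17 ± 0.15) and CXCL3 (1.72 ± 0.22). CYP1B1 had 0.87 ± 0.56 and RGS1 2.14 ± 0.47, neither of which passed. COL1A2 was called in the opposite direction, with 19.1, 16.0 and 32.3 CPM in samples labelled lung against 6.58, 1.28 and 2.68 CPM in those labelled liver (2.90 ± 0.44, adjusted p 0.0475).

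The called genes also differed in position and length, which was noticed after the data had been seen and is described without a test. Of the 15 lower genes 3, POLA1 (chrX:24693919-24996986), HUWE1 (chrX:53532096-53686729) and SLC9A7 (chrX:46599252-46759172), lie on the X chromosome, and 0 of the 33 higher ones do. Over 360 protein-coding X genes with a mean of at least 5 CPM, the median difference between lung and liver in log2 CPM was -0.26, -0.54 and -0.18 in mice 1, 2 and 3. Fitted values were negative for 83.6% of X genes (median -0.32) and for 55.5% of 10205 autosomal genes (median -0.04). The median of lung minus tumour on X was -0.28, -0.51 and -0.20, and that of liver minus tumour was -0.03, 0.09 and -0.08, so lung stood apart in each mouse. Along the X chromosome the shift in mouse 1 was not even: 4 bins of 60 genes up to position 108084207 had medians of -0.45 to -0.25, and the other 2 bins had 0.05 each. In mouse 2 the 6 bins ranged from -0.69 to -0.43 and in mouse 3 from -0.34 to -0.05. In subclone 2 the X medians were -0.10, 0.37 and -0.15. No other chromosome was below -0.15 in every mouse, although chromosome 15 had -0.29, -0.18 and -0.11 and chromosome 4 had -0.38 in mouse 2.

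**Figure D5:**
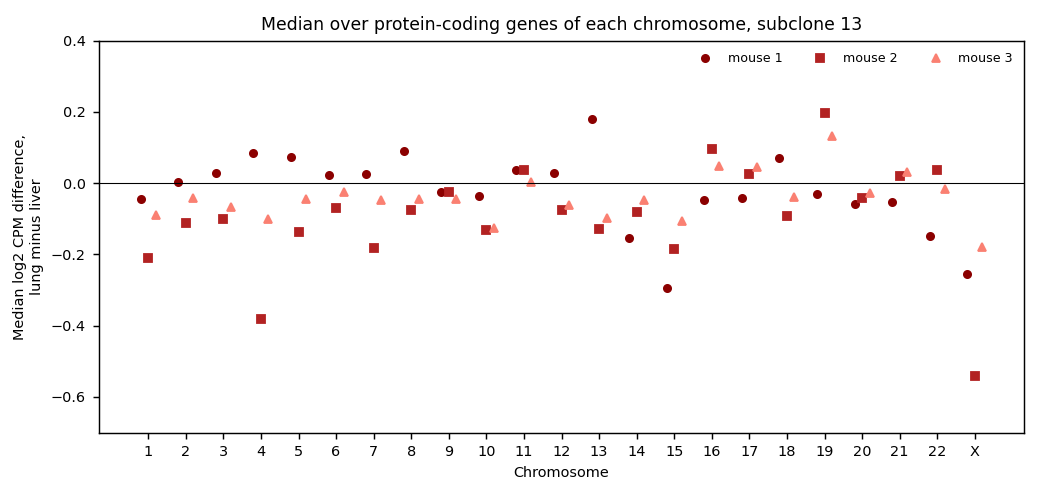
Median difference in log2 CPM, lung minus liver, over protein-coding genes of each chromosome with a mean of at least 5 CPM, for each mouse of subclone 13. The X chromosome is at -0.26, -0.54 and -0.18 in mice 1, 2 and 3.

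The median exonic length was 4117 bases for 17 higher and 9636 bases for 15 lower nuclear protein-coding genes. It was 5327 bases for the 10565 nuclear protein-coding genes with a mean of at least 5 CPM over the 18 samples. Across 5 classes of 2113 of these 10565 genes by exonic length, the median of lung minus liver was 0.09, -0.003 and 0.15 in the shortest class of mice 1, 2 and 3. In the longest class it was -0.14, -0.12 and -0.15. The longest class held 9 of the 15 lower genes and 3 of the 17 higher ones. Not all of the 15 lower genes reached the minimum level for the classes. The part of transcript length or RNA quality in these calls was not tested.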

How the data were processed

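RNA of sorted cells was isolated with a column kit with DNase treatment, and the libraries, per the labels' protocols, were Illumina TruSeq (RNA, version 2 of the kit), which keeps no strand. bcl2fastq 2.15.0.4, cutadapt, STAR, featureCounts and the build GRCh38 are named in the submitters' processing notes, with no settings given in the sources used here. The values deposited by the authors are raw read counts per gene, in a table of 38526 genes for the first experiment and one of 36291 for the retransplantation. A sample sheet deposited by the authors gives the sequencing run of each library, a run number and not a score. Both tables hold whole numbers. Of 40950 gene IDs in them, 40625 matched a symbol and all matched GENCODE v29, the source of coordinates.

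The labels call 6 of the 9 subclone 13 libraries of mouse 1 technical replicates and the sample sheet marks all 9, so the 3 libraries of an organ were summed. Genes were kept with filterByExpr, counts were scaled by TMM, and the 18 samples of the first experiment were fitted together in edgeR 4.0.16 (R 4.3.3) with group and mouse. The quasi-likelihood F test was adjusted by Benjamini-Hochberg over 17418 genes. The SE is the size of the log2 fold change over the square root of F. The retransplantation samples had a fit of their own, with 2 residual degrees of freedom. CPM values are TMM-scaled, except mitochondrial shares and summed cell type markers, which use total counts. The mouse numbers come from the labels. Deviations from the group means of lung and liver correlated at 0.56, 0.28 and 0.36 within mice 1, 2 and 3, and from -0.56 to 0.24 between different mice. P-values of the main fit rest on the spread left after group and mouse over all 18 samples, with 10 residual degrees of freedom. Those samples include subclone 2 and the tumours. The subclone 13 samples come from 3 mice and 1 clone.

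The rule for naming took called genes (adjusted p under 0.05) with a symbol, the same direction in 3 mice and at least 5 CPM on average in the higher organ, up to 15 each way by fold change. Called members of a list and up to 4 others by smallest p were also named; CCL20, NFKBIA, TNIP1 and the called genes outside the rule were added after their values were seen. Gene lists, members and tests were chosen with earlier results of these data known. The fit was tested on simulated counts. DESeq2 1.42.0, RLE scaling, no filter, other sample sets and leaving out samples or mice were the alternatives.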

Additional observations from a re-analysis of the deposited data

Results flagged for a closer look

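Some results of subclone 13 ran opposite, in every mouse, to those of the retransplanted subclone 2, and the difference was not tested. POLA1 had -0.99 (log2 fold change, lung minus liver) in subclone 13 and 0.56 ± 0.17 in the retransplantation (adjusted p 0.179 in edgeR). HUWE1 had -0.93 in subclone 13 and 0.53 ± 0.18 in the retransplantation (adjusted p 0.228). COL1A2 had -1.89 in subclone 13 and 2.90 ± 0.44 in the retransplantation (adjusted p 0.0475). In the retransplantation POLA1 and HUWE1 thus did not pass, and COL1A2 did. The median of X chromosome genes was -0.26, -0.54 and -0.18 in mice 1, 2 and 3 of subclone 13, and 0.30, 0.72 and 0.71 in mice 4, 5 and 6 of the retransplantation. Subclone 2 of the first experiment, the subclone that was retransplanted, had -0.48 ± 0.18 for POLA1 (adjusted p 0.154 in edgeR), -0.61 ± 0.17 for HUWE1 (adjusted p 0.0568) and -2.58 ± 0.40 for COL1A2 (adjusted p 0.00274), all of the sign seen in subclone 13. Its X chromosome medians were -0.10, 0.37 and -0.15 in mice 1, 2 and 3. The retransplantation used other mice and another sequencing run, which cannot be told apart.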

How the results depend on the processing

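The direction of all 48 called genes was the same under every alternative that held them, but their number was not. Leaving out the replicate block, that is the paired analysis by mouse number, gave 0 calls, with all 18 samples and with the 6 compared samples alone; with the block those 6 samples alone gave 640. No filter on low counts gave 303, DESeq2 388 (54.6% of them higher, against 68.8% of the 48) and leaving out mitochondrial genes, an alternative chosen after seeing the data, 21. Leaving out 1 sample or mouse gave 6 to 36 calls: 17, 23 and 7 without the lung sample of mouse 1, 2 or 3, 18, 19 and 36 without the liver sample, and 20, 7 and 6 without the whole mouse, with 77.8% to 100% of them higher in lung. RLE scaling gave 50, and 1 library of mouse 1 in place of the sum 42 to 46. RRAD was called in 17 of 19 alternatives, CYP1B1 and MTND2P28 in 16 and SNHG8 in 4.

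The difference between the subclones gave 67 calls with no filter, 18 with DESeq2 and 0 to 2 with samples or mice left out. Lung against liver in subclone 2 (514 calls) gave 4 without the replicate block, 966 with no filter, 1430 with DESeq2 and 27 to 544 with samples or mice left out (337 without the subclone 13 lung sample of mouse 2, 83 without mouse 3). In the retransplantation (84 calls) it gave 0 without the replicate block and 1523 with no filter. The X chromosome medians of subclone 13 stayed between -0.57 and -0.16 with a minimum of 1 or 20 CPM or RLE scaling, alternatives chosen after seeing the data. Counting limits the low transcripts most, such as CYP1B1 in liver.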
